A study of Mus musculus with 16 samples.

Results

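The very long protein-coding genes of mouse liver were followed after a single dose of diethylnitrosamine (DEN), a carcinogen that liver enzymes turn into a compound that alkylates DNA. A gene was a member when the deposited annotation called it protein coding and placed its end at least 400000 bases from its start, and Fhit, Wwox, Park2 and Exoc4 were left out by the same rule. This gave 338 members among 22043 protein-coding genes and 47719 genes in all, of which 188 had enough counts to be tested. The livers came from wild-type C57BL/6 males of 2 ages, labelled 3-4 weeks in the sample records (1 month in the study design) and 6 months. At each age there were 2 libraries from untreated mice, 3 libraries from mice killed 2 days after one intraperitoneal injection of DEN and 3 libraries from mice killed 6 days after it, 16 libraries in 6 groups. The dose was 25 mg/kg by the labels, whereas the methods give the same figure per gram. Each library was a pool of equal RNA from 3 mice, with an RNA integrity number of at least 8, so every SD and p-value here measures the spread between pools. The untreated mice of an age were the controls of both of its days, and no control group is labelled for days 2 or 6.

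RNA polymerase II copies a gene in one pass from start to end, so the time that a transcript takes grows with the length of its gene, almost all of it intron in the longest genes. Bulky and alkylated bases can stall the polymerase, and a longer gene offers more bases to be hit. Very long genes are best known from neurons, where they encode adhesion molecules, channels and scaffolds, and many of them span common fragile sites, regions that break when replication is slowed. The comparison asked whether the length of a gene went with lower counts after DEN when set against shorter genes of equal expression.

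The 188 tested members had a median span of 539 kb, and the median of 13473 tested shorter protein-coding genes was 23.1 kb. Exons made up a median of 1.79% of the span of a tested member and 19.2% of that of a shorter gene. Their exonic length was nevertheless greater, with a median of 10959 bases against 4349. Per kilobase of exon the members were low in liver, with a median level of 0.356 CPM (counts scaled to library size) against 3.14 for shorter genes. All members together took 0.227% to 0.385% of the counts of a library. Of the 150 members that were not tested, 15 had no count in any library and the other 135 reached a mean of at most 0.213 CPM. Members lay on all 19 autosomes, and 15 lay on the X chromosome. Just inside the threshold on length lay Bnc2 (400180 bases, not tested), Dock4 (400433 bases) and Dst (400436 bases). Just outside lay Adk (395994 bases) and Plxdc2 (399535 bases). Dock4 had log2 fold changes of -0.35 and -0.25 at day 2 at 1 and 6 months, Dst of -0.33 and 0.045, Adk of -0.098 and -0.42, and Plxdc2 of -0.45 and 0.36.

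RefSeq held a promoter, taken from 250 bases before to 50 bases after the start on GRCm38.p6, for 249 of the 338 members and for 144 of the tested ones. The tested members had a median of 19 CG dinucleotides in this window and tested shorter genes 20, whereas the median over all 27025 promoters was 7. At least 10 CG were present in 72.9% of the promoters of tested members, in 78.0% of those of shorter genes and in 44.0% of all. The letters TATAAA, searched on both strands, were found in 7.64%, 7.51% and 14.2% of these promoters. The promoters of Sugct and Pard3b are printed here with CG in capitals, because these members had the smallest p at day 2 at 6 months. Neither holds the letters searched. The first lies at chr13:17694716-17695015 on the minus strand and has 25 CG. The second lies at chr1:61638574-61638873 on the plus strand and has 26 of these dinucleotides in its window.
Sugct: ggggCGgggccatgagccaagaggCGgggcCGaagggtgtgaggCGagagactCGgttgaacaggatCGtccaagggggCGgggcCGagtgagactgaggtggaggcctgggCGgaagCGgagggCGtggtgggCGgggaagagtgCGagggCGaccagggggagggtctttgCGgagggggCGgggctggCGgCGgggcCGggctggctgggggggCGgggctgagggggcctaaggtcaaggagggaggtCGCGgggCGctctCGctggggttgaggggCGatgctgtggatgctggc
Pard3b: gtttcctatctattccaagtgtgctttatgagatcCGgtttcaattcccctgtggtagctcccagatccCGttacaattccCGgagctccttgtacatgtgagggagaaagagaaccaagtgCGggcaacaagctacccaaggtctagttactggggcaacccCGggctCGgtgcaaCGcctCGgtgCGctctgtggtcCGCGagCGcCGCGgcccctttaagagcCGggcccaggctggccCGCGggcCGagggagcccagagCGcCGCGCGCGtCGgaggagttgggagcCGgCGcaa

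Total counts ran from 19039330 to 34459774 per library with a median of 26125037, and libraries of 1 group correlated at 0.972 to 0.986 on log2 CPM. The summed level of 10 hepatocyte markers, all tested, was 35412 to 45323 CPM in 1-month controls, 29949 to 44763 CPM at day 2 and 34946 to 43952 CPM at day 6. At 6 months it was 30656 to 34345 CPM in controls, 23865 to 29294 CPM at day 2 and 28243 to 29657 CPM at day 6, so that all DEN libraries of that age lay below both controls. The libraries differed in a score of circadian clock genes, and 1 control, 1 day 2 and 1 day 6 library of 1 month had the lowest scores of all 16. At 6 months this score was 1.62 and 1.81 in controls, 4.05, 3.14 and -0.030 at day 2 and 4.12, 1.45 and 0.82 at day 6. At 1 month the library labelled day 2 replicate 3 had 3.44 CPM of Phlda3, a target of p53, against 14.5 and 32.8 CPM in the other day 2 libraries and 1.16 to 1.30 CPM in the controls. Day 6 replicate 2 had 2.59 CPM, against 8.87 and 10.9 CPM in the other day 6 libraries. The controls of that age differed in Cdkn1a, with 4.22 and 56.4 CPM, and day 2 had 47.6, 106 and 81.4 CPM. Mitochondrial counts made up 2.39% in 1-month control replicate 2 and 2.18% in day 6 replicate 2, and 3.52% to 5.28% elsewhere.

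Very long genes had lower counts relative to shorter genes on both days after DEN and at both ages. For each member the log2 fold change was set against the median of the shorter protein-coding genes in the same of 10 expression classes, and the median of this difference over the 188 members is called the long-gene difference. It was -0.28 at day 2 and -0.21 at day 6 at 1 month, and -0.22 at day 2 and -0.17 at day 6 at 6 months, which are 17.8%, 13.7%, 13.9% and 10.9% fewer counts. Without 6-month control replicate 1 the value at day 6 at 6 months was -0.084, and without 1-month day 2 replicate 2 that at day 2 at 1 month was -0.13. Of the 188 members, 144, 144, 141 and 133 lay below the shorter genes in the 4 comparisons. Without reference to shorter genes the median log2 fold changes of the members were -0.28, -0.22, -0.23 and -0.15, beside medians of all 15684 tested genes between -0.011 and -0.0020. A negative fold change was held by 150, 145, 143 and 130 members (79.8% at day 2 at 1 month), against 50.4% to 51.9% of all genes. Between untreated 6-month-old and 1-month-old mice the long-gene difference was 0.014, and 90 of 188 members lay below the shorter genes. Leaving out single control libraries moved that value to between -0.055 and 0.13. Both days of an age share their controls, so their values are not independent of each other. In whole liver, fewer cells of a type and less RNA per cell cannot be told apart.

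The medians were lower in classes of greater span. At day 2 in 1-month-old mice the median against all shorter genes of equal expression was 0.10 for 3354 genes under 10 kb and 0.005 for 6565 genes of 10 to 50 kb. It was -0.067, -0.092 and -0.16 for the 1967, 1135 and 452 genes of 50 to 100, 100 to 200 and 200 to 400 kb, before -0.28 in the members. At day 2 in 6-month-old mice the first 3 classes lay between 0.00052 and 0.0059, and the next ones at -0.023, -0.088 and -0.22. Among the members, the 27 genes of 1 Mb or more had medians of -0.50, -0.38, -0.33 and -0.26 at days 2 and 6 at 1 month and days 2 and 6 at 6 months. The 81 genes of 400 to 500 kb had -0.25, -0.17, -0.24 and -0.19. At 6 months the 52 genes of 500 to 700 kb, with -0.15 and -0.14, lay between these in span but not in value, and at day 6 at 1 month the 28 genes of 700 to 1000 kb had -0.12.

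**Figure D1:**
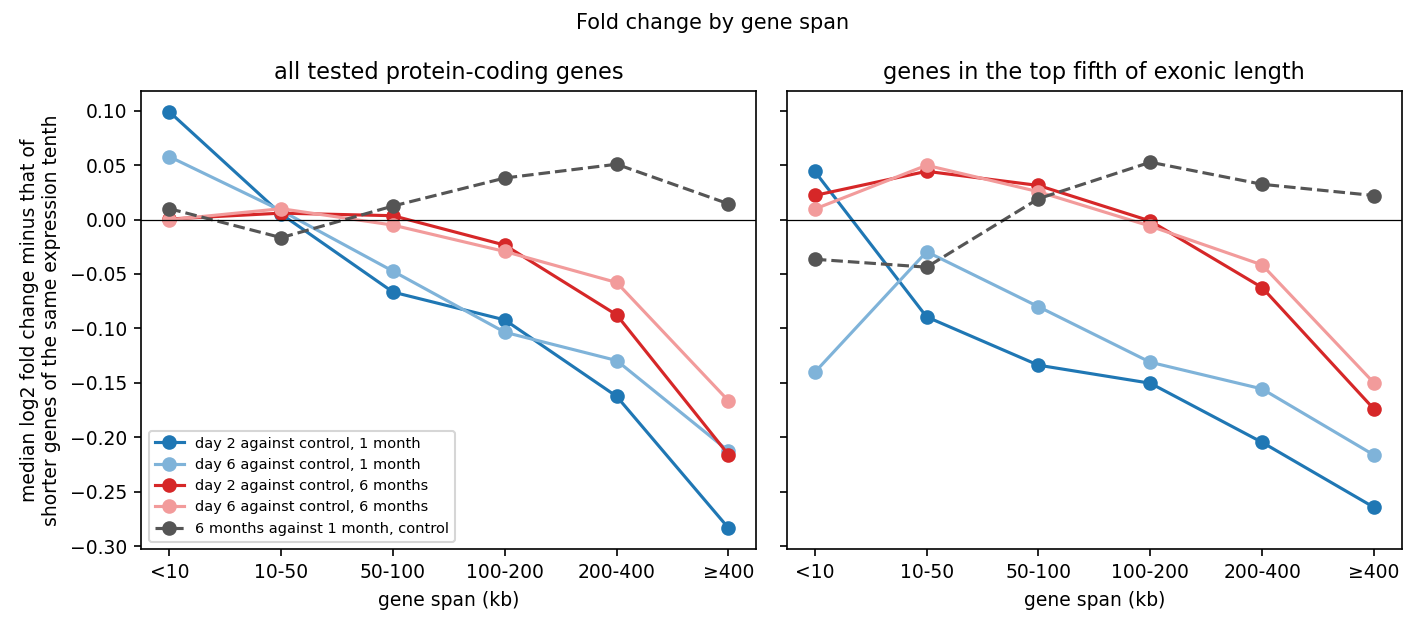
Median log2 fold change minus that of shorter protein-coding genes of the same expression class (vertical axis, log2) for 6 classes of gene span (horizontal axis, kb), with one line for each comparison, for all tested protein-coding genes (left) and those of the longest exons (right). On the left, in the 4 comparisons of DEN with controls the class of 400 kb and over is lowest (-0.28, -0.21, -0.22 and -0.17), while between untreated ages it lies at 0.014.

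Exonic length moved with the result at 1 month and was looked at separately, because 140 of the 188 members are in the class of the longest exons when protein-coding genes are split into 5 classes. At 1 month the medians of 5 classes of exonic length ran from 0.16 in the shortest to -0.13 in the longest at day 2 and from 0.079 to -0.086 at day 6, while at 6 months they stayed between -0.025 and 0.020 at these ends. With the shorter genes also matched on the class of exonic length, an alternative chosen after seeing the data, the long-gene difference was -0.16, -0.14, -0.24 and -0.18. The values at 1 month thus moved by over 1.5 times and those at 6 months by less. Within the class of longest exons, the classes of 10 to 50 kb and of 400 kb and over had medians of -0.089 and -0.26 at day 2 at 1 month and of 0.044 and -0.17 at day 2 at 6 months.

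The difference lay below 0 in each of 3 ranges of expression. The 69 members with a mean of 10 CPM or more had -0.27, -0.18, -0.17 and -0.11 in the 4 comparisons, the 63 members of 1 to 10 CPM had -0.30, -0.25, -0.25 and -0.25, and the 56 members under 1 CPM had -0.17, -0.14, -0.38 and -0.24. The span of a gene model is not always that of its main transcript. In 151 tested members the principal transcript in GENCODE M21 spanned at least 400 kb, and their medians were -0.29, -0.22, -0.24 and -0.19. In the other 37 it was shorter, and the medians were -0.19, -0.18, -0.15 and -0.099. The 147 members that overlap no other protein-coding gene had -0.29, -0.22, -0.21 and -0.16. Whether the counting used strand is not stated by the sources at hand, so reads of overlapping genes cannot be told apart in the other 41.

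Each library was also given a score, the median over the members of log2 CPM centred on the mean of all libraries, less the same for shorter genes of equal expression. The 4 untreated libraries had the highest scores of the 16. At 1 month the controls had 0.210 and 0.0847, the day 2 libraries 0.0806, -0.430 and 0.0312, and the day 6 libraries -0.0183, -0.0527 and -0.124. At 6 months the controls had 0.229 and 0.143, the day 2 libraries -0.0778, -0.0971 and 0.0678, and the day 6 libraries -0.0403, 0.0453 and 0.0807. Controls and DEN libraries did not overlap at either age, while days 2 and 6 overlapped each other. The gap between the lower control and the highest day 2 library was smaller than the SD of the day 2 group at both ages (0.281 at 1 month and 0.0901 at 6 months, n = 3 each). The score of 1-month day 2 replicate 2 stood far below all others. Without that library 121 of 186 members (65.1%) lay below the shorter genes at day 2 at 1 month. Libraries of like clock score were also set side by side at 1 month. The control of high clock score, 0.210, lay above the 2 day 2 libraries and the 2 day 6 libraries of high clock score, and the control of low clock score, 0.0847, above the day 2 and day 6 libraries of low clock score, 0.0312 and -0.0527. With shorter genes matched also on exonic length, the 1-month controls had 0.156 and 0.0497 and overlapped the day 2 libraries, of which replicate 3 had 0.0812. Over members of at least 10 CPM alone they had 0.217 and 0.0944, and day 2 replicate 1 had 0.0977. At 6 months the controls stayed above all 6 DEN libraries on both of these scores.

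**Figure D2:**
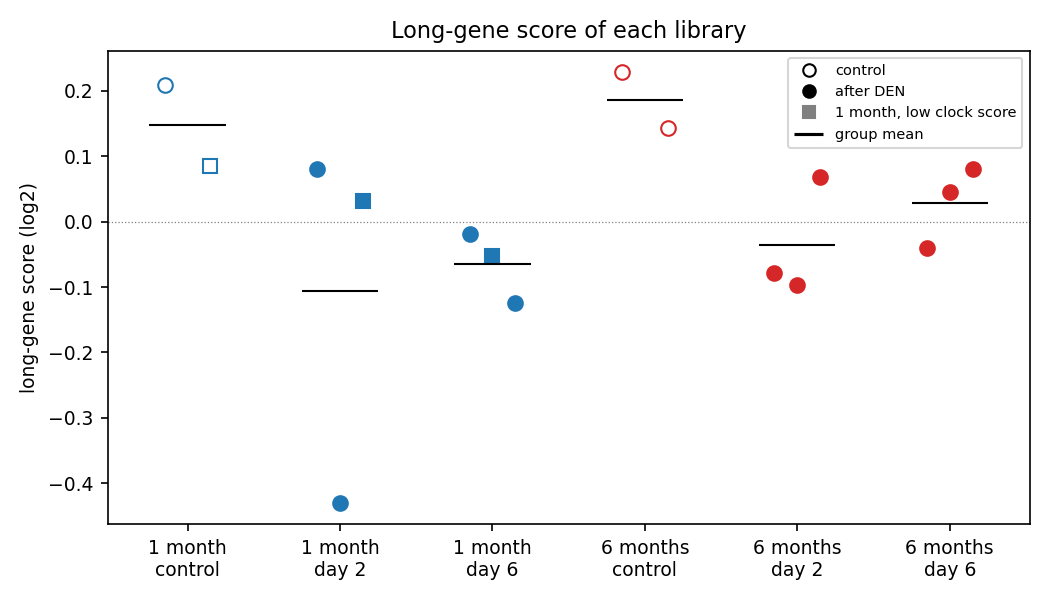
Long-gene score of each of the 16 libraries (vertical axis, log2), grouped by age and day (horizontal axis), with each library a point, squares for 1-month libraries of low clock score, and the group mean a line. The 4 untreated libraries lie between 0.0847 and 0.229, and the 12 libraries after DEN between -0.430 and 0.0807.

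Levels of other cell types were read from their markers, since many of these genes are used outside hepatocytes. The summed level of 8 markers of neurons and Schwann cells, of which Nefl was at 0 in all libraries, was low throughout. It was 1.88 to 2.65 CPM in the 1-month controls, above the 1.46 to 1.699 CPM at day 2, and 1.44 to 1.95 CPM at day 6. At 6 months it was 1.62 to 2.15 CPM in controls, 1.83 to 2.28 CPM at day 2 and 1.84 to 2.32 CPM at day 6. The 9 markers of sinusoidal endothelium summed to 330.5 to 430.4 CPM in 1-month controls, 307 to 366 CPM at day 2 and 269.6 to 390.2 CPM at day 6, and to 262 to 341 CPM, 224 to 290.1 CPM and 206 to 284 CPM at 6 months. The 4 adipocyte markers summed to 1.17 to 2.33 CPM in 6-month controls and to at most 0.896 CPM in the DEN libraries of that age. The 5 erythroid markers summed to 430.04 to 704 CPM in 1-month controls, 368 to 538 CPM at day 2 and 236 to 539 CPM at day 6, and overlapped between the groups at 6 months. The 10 stellate cell and fibroblast markers summed to 486 to 496 CPM in 1-month controls. At days 2 and 6 they summed to 412 to 539 CPM and 375 to 413 CPM. The sums at 6 months were 321 to 410, 378 to 492 and 293 to 435 CPM. Sums of macrophage, cholangiocyte, lymphocyte and smooth muscle markers overlapped between controls and DEN libraries on each day at each age. Those of neutrophils lay below the 1-month controls at day 2, and those of exocrine pancreas above them at day 6. The part of these levels, and of the hepatocyte markers given above, in the result was not tested.

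Single members seldom passed the test across all genes. At a Benjamini-Hochberg adjusted p under 0.1 in edgeR's quasi-likelihood test, 0 members were called at day 2 at 1 month (background 0.0191% of all tested genes), 0 at day 6 at 1 month (background 0%), 1 at day 2 at 6 months (background 0.319%) and 0 at day 6 at 6 months (background 0.249%). DESeq2 called 2, 1, 6 and 1 members, beside 0.643%, 0.121%, 0.759% and 0.542% of all genes. Its calls were Gm37240 and Cdh13 at day 2 and Tenm3 at day 6 at 1 month, and Sugct on both days and Pard3b at day 2 among those at 6 months. At an unadjusted p under 0.05 by edgeR, 26 members were lower and 2 higher at day 2 at 1 month, beside 3.98% and 3.18% of all genes. At day 6 at 1 month 12 were lower and 1 higher (1.35% and 1.36% of all genes). At 6 months 30 were lower and 3 higher at day 2 (1.77% and 2.24% of all genes), and 13 lower and 2 higher at day 6 (1.29% and 1.7% of all genes). The lower members were thus the larger share in each of the 4 comparisons.

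The member that passed was Pard3b, a cell polarity protein of the PAR-3 family found at cell junctions, whose gene of 1003 kb lies at chr1:61638824-62642284. In 6-month-old mice it was measured at 11.5 and 7.71 CPM in the controls, 4.76, 3.93 and 3.52 CPM at day 2 and 6.48, 6.51 and 6.25 CPM at day 6. All 6 DEN libraries lay below both controls, and day 2 below day 6. It fell at day 2, with a log2 fold change of -1.24 (SE 0.249, adjusted p = 0.0693 by edgeR's quasi-likelihood test, Benjamini-Hochberg). This call was lost when any of the 8 libraries of that age, or 1-month day 6 replicate 3, was left out, and over the 16 fits that left out 1 library its adjusted p ran from 0.0163 to 0.961. It was also lost with only the groups compared and without the 3 libraries of lowest clock score. At 1 month the controls had 6.14 and 4.89 CPM, the day 2 libraries 4.65, 2.30 and 3.75 CPM and the day 6 libraries 4.70, 4.70 and 4.25 CPM, again without overlap, and the log2 fold change at day 2 was -0.64 (adjusted p = 0.695).

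Next in p at 6 months came Sugct, the mitochondrial transferase that passes coenzyme A to glutarate (837 kb at chr13:16857855-17694732). Its 6-month controls had 22.6 and 21.9 CPM, day 2 10.8, 11.7 and 13.9 CPM and day 6 13.9, 12.2 and 12.2 CPM. All 6 DEN libraries lay below both controls by more than the controls differed from each other, and the adjusted p was 0.126 at day 2 (log2 fold change -0.88) and 0.247 at day 6 (-0.80) by edgeR's quasi-likelihood test. At 1 month the controls had 18.5 and 14.2 CPM, day 2 10.1, 7.55 and 12.5 CPM and day 6 15.3, 12.9 and 16.9 CPM, so that day 2 lay below the controls and day 6 overlapped them. The log2 fold change at day 2 was -0.70.

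Groups without overlap were counted for every member. At day 2 at 1 month all DEN libraries lay below all controls in 45 members (23.9%) and above them in 5 (2.66%), beside 8.77% and 7.96% of all tested genes. At day 6 at 1 month the numbers were 44 (23.4%) and 7 (3.72%), beside 7.26% and 7.09%. At day 2 at 6 months they were 67 (35.6%) and 11 (5.85%), beside 11.1% and 10.8%, and at day 6 at 6 months 46 (24.5%) and 9 (4.79%), beside 9.97% and 9.53%. Without 1-month day 2 replicate 2, an alternative chosen after seeing the data, 47 members were lower and 20 higher at day 2 at 1 month, beside 12.1% and 11.3% of all genes. Leaving out a DEN library can add to these counts but take nothing from them.

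The ages share no library, so their day 2 values were set side by side. A total of 111 members (59.0%) lay below the shorter genes at day 2 of both ages, beside 24.5% of the shorter genes themselves. The reference is the median of the shorter genes, so their own share is largely set by the method. Taken singly, the ages had 144 and 141 members below at day 2. Whether 111 exceeds what these counts give was not tested. All DEN libraries lay below all controls at day 2 of both ages in 22 members (11.7%), beside 1.19% of all tested genes, and above them in 0 members. These were Large, Cadps2, Ptprg, Rbfox3, Tnik, Cdh13, Dpyd, Fhod3, Bbs9, Gphn, Pard3b, Smyd3, Sugct, Gpc6, Eda, Maml3, 1700112E06Rik, Fam172a, Nrxn3, Hmcn1, Adgrv1 and Naaladl2. Taken singly, the ages had 45 and 67 members without overlap and lower at day 2. Whether 22 exceeds what those counts give was not tested either. Over the 188 members Pearson's r between the differences of the ages at day 2 was 0.0071, and over the shorter genes it was 0.18, as a description over genes that share libraries. Of the 22, Nrxn3, a neurexin of synapses singled out after its values were seen, stood lowest at 6 months, with 0.420 and 0.142 CPM in controls and 0.0626, 0.0835 and 0 CPM at day 2, and had 0.614 and 0.510 CPM and 0.230, 0.182 and 0.305 CPM at 1 month. In 8 members the DEN libraries were below all controls on both days of both ages (0.293% of all genes): Large, Ptprg, Cdh13, Dpyd, Gphn, Pard3b, Smyd3 and Fam172a. They were named after their values were seen, and whether 8 exceeds what the single comparisons give was not tested. By edgeR's quasi-likelihood test Pard3b alone of these 8 was called, and DESeq2 called Pard3b at day 2 at 6 months and Cdh13 at day 2 at 1 month.

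**Figure D3:**
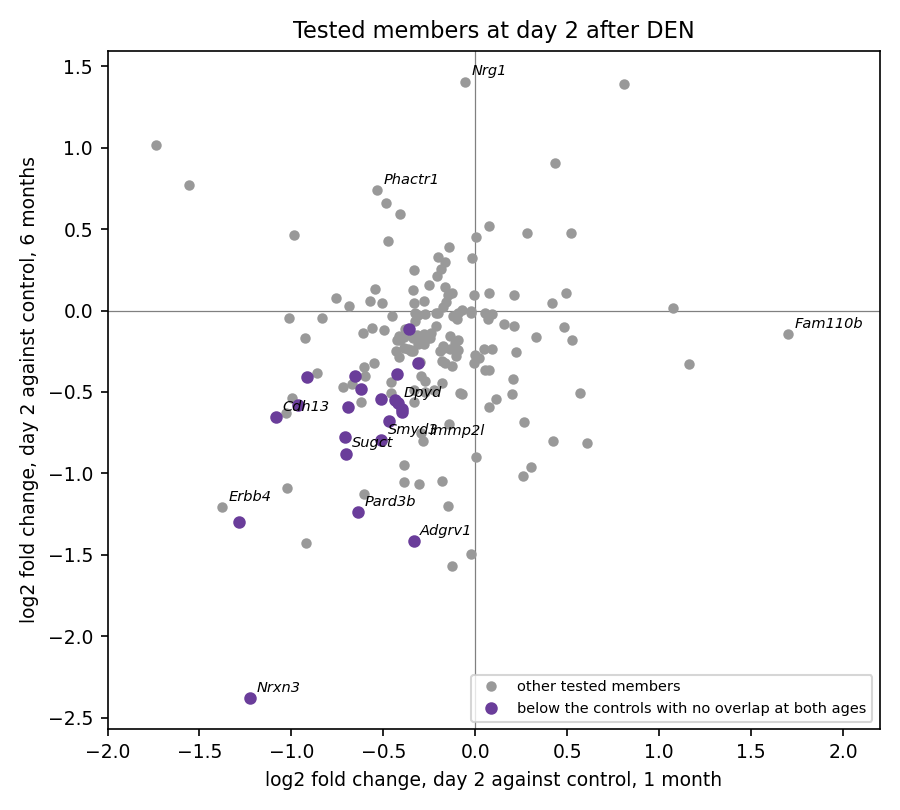
Log2 fold change at day 2 against controls for 181 tested members, leaving out 7 with at most 3 counts in a group, at 1 month (horizontal axis) and at 6 months (vertical axis). Purple points are the 22 members whose day 2 libraries lay below all controls at both ages, and the remaining members are grey and spread on both sides of 0.

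Dpyd encodes dihydropyrimidine dehydrogenase, the first and rate-limiting enzyme of pyrimidine breakdown, and was the most abundant member in liver at 49.1 CPM per kilobase of exon. It had 510.1 and 482 CPM in 1-month controls, 380.1, 276 and 454 CPM at day 2 and 467, 396 and 379.6 CPM at day 6. At 6 months it had 619.8 and 553 CPM, 386, 405 and 394 CPM and 456, 444 and 381 CPM. Every DEN library lay below every control of its age, with log2 fold changes of -0.42, -0.26, -0.57 and -0.46.
Cdh13 encodes T-cadherin, a cadherin held to the membrane by a lipid anchor that binds adiponectin. It had the smallest p of the lower members at day 2 at 1 month, where the controls had 3.11 and 2.17 CPM, day 2 1.24, 1.09 and 1.39 CPM and day 6 1.68, 1.504 and 1.69 CPM. At 6 months it had 3.50 and 2.30 CPM, 1.94, 1.34 and 2.19 CPM and 2.11, 2.22 and 1.94 CPM. The log2 fold change at day 2 was -1.08 (SE 0.266) at 1 month and -0.65 (SE 0.258) at 6 months.
Smyd3, a lysine methyltransferase of the SET and MYND family, had 4.30 and 4.04 CPM in 1-month controls, 3.04, 2.19 and 3.57 CPM at day 2 and 3.31, 3.04 and 3.93 CPM at day 6. Its 6-month values were 4.44 and 3.58 CPM, 2.41, 2.09 and 2.39 CPM and 3.11, 3.43 and 3.56 CPM, and the day 6 libraries came close to the lower control. Large, the glycosyltransferase that elongates the sugar chain of dystroglycan, had 8.36 and 7.57 CPM in 6-month controls, 6.13, 5.22 and 4.95 CPM at day 2 and 6.37, 6.36 and 6.71 CPM at day 6, and log2 fold changes of -0.43, -0.31, -0.55 and -0.29 in the 4 comparisons.
Gphn encodes gephyrin, which makes the molybdenum cofactor and anchors receptors at inhibitory synapses. It had 76.4 and 91.2 CPM, 73.6, 53.7 and 75.6 CPM and 63.9, 75.6 and 69.6 CPM at 1 month, and 75.5 and 80.5 CPM, 62.6, 61.0 and 64.0 CPM and 57.6, 67.3 and 65.1 CPM at 6 months. Its log2 fold changes lay between -0.32 and -0.27, the narrowest range of these 8. Fam172a had -0.40, -0.34, -0.61 and -0.39, and overlaps another protein-coding gene. Ptprg, a receptor tyrosine phosphatase, had -0.36 and -0.25 at 1 month but only -0.12 and -0.073 at 6 months.

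**Figure D4:**
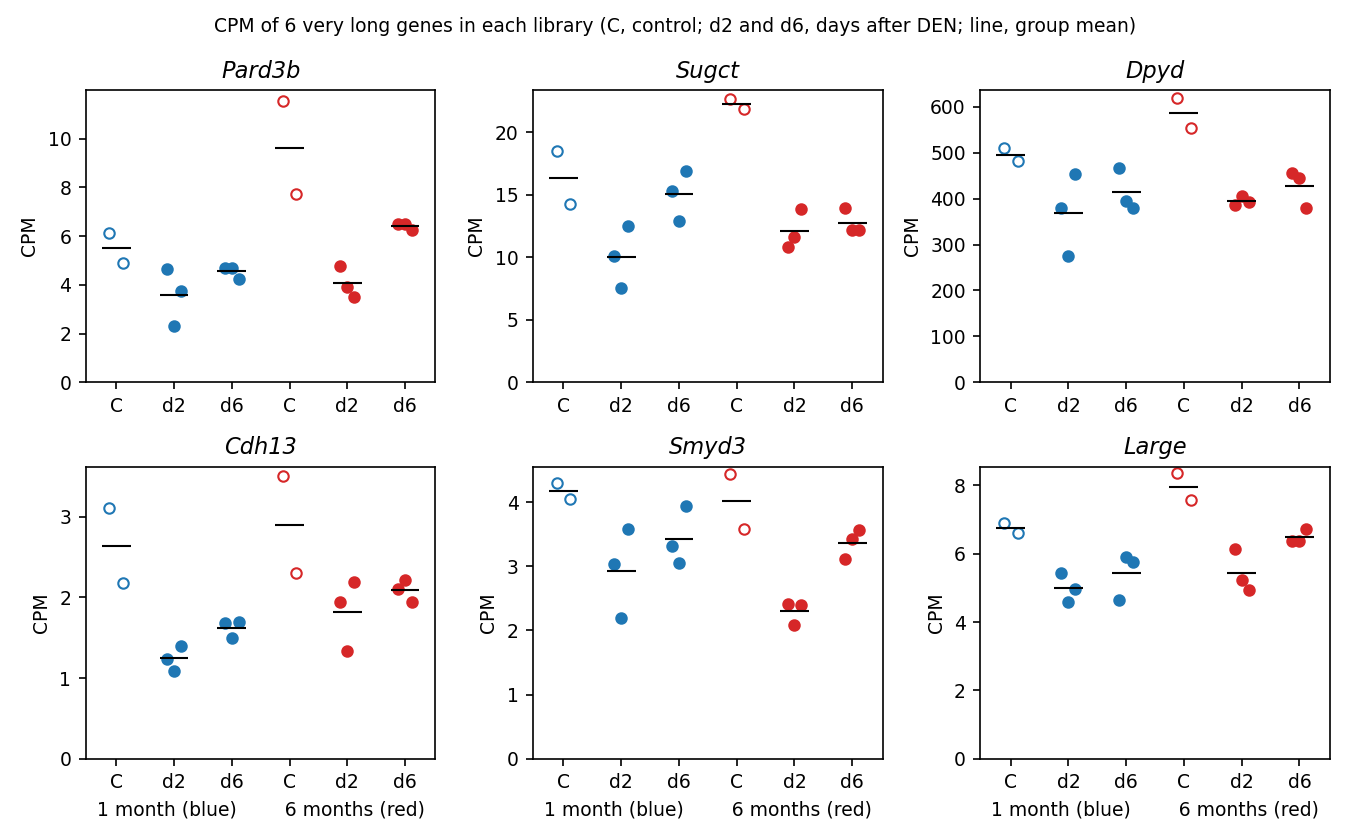
CPM (vertical axis, from 0) of 6 members in each of the 16 libraries, by group (horizontal axis; C for control, d2 and d6 for days 2 and 6), with a point for each library and a line at the group mean. In Pard3b and Dpyd every DEN library lies below both controls of its age, as for Pard3b at day 2 at 6 months with 4.76, 3.93 and 3.52 CPM below 11.5 and 7.71 CPM.

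The members were sorted by what their products do, from lists that placed 246 of the 338 and left 92 in none. Enzymes of metabolism and modification, 28 members of which 18 were tested, had medians against shorter genes of -0.34, -0.27, -0.33 and -0.23, with 16, 15, 15 and 17 of them below. Immp2l, a subunit of the peptidase of the inner mitochondrial membrane, was measured at 21.9 and 21.1 CPM in 6-month controls and 11.3, 12.5 and 13.2 CPM at day 2, without overlap, whereas at 1 month the groups overlapped. Naaladl2, a relative of glutamate carboxypeptidase, had 9.90 and 10.4 CPM and 6.95, 6.47 and 6.97 CPM in the same groups. Macrod2, which removes ADP-ribose from proteins, was nearer to its controls, with log2 fold changes of 0.052 and -0.36 at day 2.

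Transcription and RNA-binding factors (25 members, 19 tested) had -0.26, -0.24, -0.19 and -0.24. Those of highest mean CPM were nearer to their controls or more variable. Rora, a nuclear receptor of the clock, had log2 fold changes of 0.073 and 0.11 at day 2, and Nfib, a nuclear factor I protein, of 0.093 and -0.019. Zbtb20, a repressor of alpha-fetoprotein in liver, varied widely among the 1-month libraries, from 53.6 to 283 CPM. Signalling, scaffold and cytoskeletal members (74, of which 51 were tested) had -0.18, -0.15, -0.22 and -0.11. At 6 months the day 2 libraries lay below both controls in 19 of these 51 and above them in 3, beside 11.1% and 10.8% of all genes. At 1 month they lay below in 3 and above in 0, beside 8.77% and 7.96%. Among the 51 were Erbb4, a receptor of neuregulins, with 6.44 and 5.52 CPM in 6-month controls and 2.25, 2.88 and 2.62 CPM at day 2, and Kif26b, a kinesin-like protein, with 1.49 and 2.56 CPM and 0.782, 0.585 and 0.896 CPM. The Kif26b values at day 6 were 0.844, 0.555 and 0.836 CPM.

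Cell adhesion and axon guidance was the largest class apart from signalling, with 69 members and 33 tested, and its medians differed between the ages. They were -0.39 and -0.45 at 1 month and -0.052 and 0.081 at 6 months, a difference that was not tested for the class. The class also differed between untreated ages, with a median of -0.33 at 6 months against 1 month. In that comparison 18 of the 33 were lower without overlap and 7 higher, beside 21.1% and 22.7% of the shorter genes. At 1 month, DEN libraries without overlap lay below the controls in 12 members and above in 1 at day 2 (8.77% and 7.96% of all genes), and in 13 and 0 at day 6 (7.26% and 7.09%). At 6 months they lay below in 5 and above in 4 at day 2 (11.1% and 10.8%), and in 5 and 4 at day 6 (9.97% and 9.53%). Tenm3, a teneurin that joins cells across synapses, had 35.6 and 29.4 CPM in 1-month controls and 15.7, 19.96 and 15.8 CPM at day 6, with a log2 fold change of -0.92 (SE 0.210). At day 6 at 6 months it had 23.9 and 22.1 CPM and 18.6, 17.5 and 14.6 CPM, and a log2 fold change of -0.45. Ptprd, a receptor tyrosine phosphatase, had -0.45 at day 2 at 1 month and -0.036 at 6 months. The summed neuron and Schwann cell markers, of which 2 of 8 were tested, lay below the 1-month controls at day 2 and overlapped them at day 6. The summed stellate cell and fibroblast markers overlapped these controls at day 2 and lay below them at day 6. The part of any cell type in the values of this class was not tested.

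Channels, transporters and transmitter receptors (37 members, 15 tested) had -0.19, 0.021, -0.21 and -0.10. Slc25a21, the mitochondrial carrier of oxodicarboxylates, had 17.0 and 15.02 CPM in 6-month controls, 10.6, 12.5 and 10.6 CPM at day 2 and 12.7, 13.2 and 12.5 CPM at day 6. Its 1-month libraries all lay between 9.74 and 11.5 CPM. Matrix proteins and proteoglycans (13 members, 7 tested) had -0.35, -0.35, -0.36 and -0.31. The 45 tested members of no list, Sugct among them, had -0.26, -0.23, -0.27 and -0.25.

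A list that crosses these holds 23 members named with common fragile sites, and 13 of them were tested. Their medians were -0.42, -0.27, -0.53 and -0.26, with 11, 10, 10 and 10 below the shorter genes. Between untreated ages their median was -0.21. The 27 members of 1 Mb or more had -0.50, -0.38, -0.33 and -0.26 after DEN. The list was not matched on span, so whether it differs from other members of like span was not tested. The list holds Pard3b, Dpyd, Cdh13, Large, Immp2l, Naaladl2, Macrod2 and Rora, described above. Gmds, the enzyme that begins the synthesis of GDP-fucose, had 1.54 and 2.05 CPM in 6-month controls and 0.751, 0.752 and 1.29 CPM at day 2. Auts2 and Dab1, both below 1 CPM in every library, had log2 fold changes at day 2 of -0.57 and -0.42 at 1 month and of 0.056 and -0.18 at 6 months. Nbea, a neuronal scaffold for membrane traffic, had -0.50 and 0.043. Dystrophin, encoded by Dmd with a span of 2257 kb, had -0.14 and -0.24.

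**Figure D5:**
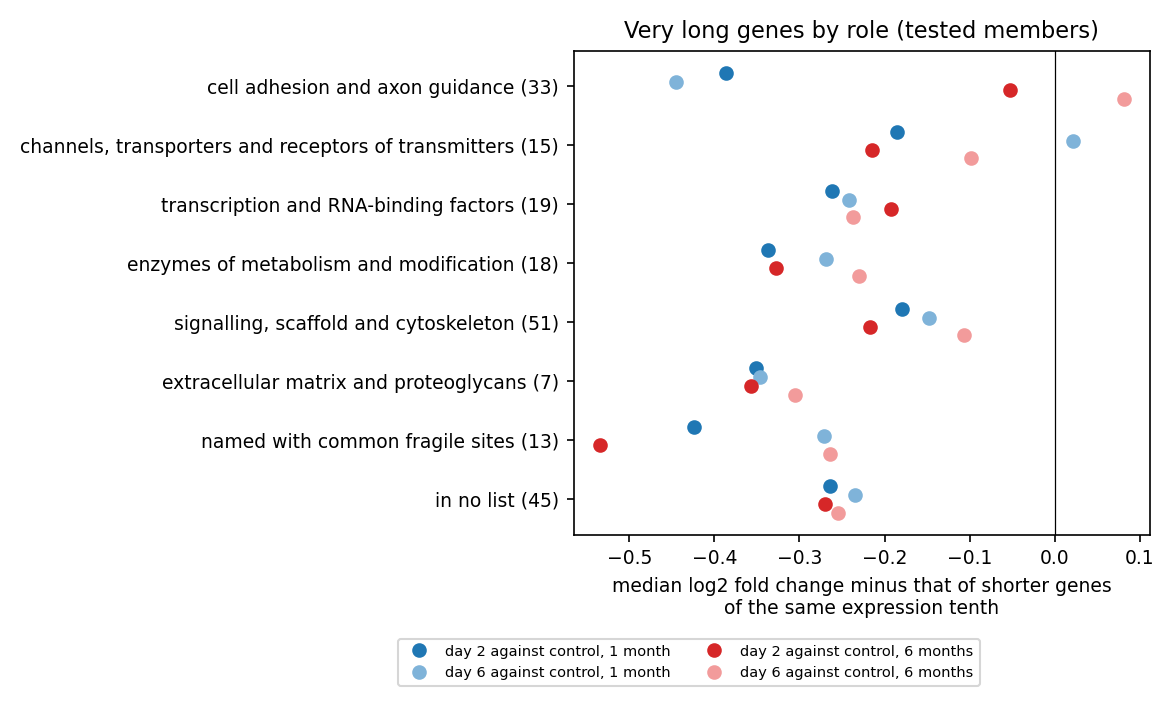
Median log2 fold change minus that of shorter genes of equal expression (horizontal axis) of the tested members of each role list (vertical axis, number tested in brackets), with one point per comparison. The points of the enzymes lie between -0.34 and -0.23, and those of cell adhesion and axon guidance at 6 months lie at -0.052 and 0.081.

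The 6 longest tested members were Gm20388, Fgfr2, Ptprd, Dmd, Macrod2 and Chd1. Gm20388, a predicted gene of 4435 kb, overlaps 73 other protein-coding genes, and Fgfr2 (2961 kb, a receptor of fibroblast growth factors) overlaps 30. The principal transcript of Fgfr2 spans 102482 bases and that of Chd1, a chromatin remodeller, 67643 bases. Gm20388 had log2 fold changes of -0.33, -0.59, -0.013 and -0.50. Fgfr2 had 0.21 and 0.092 at day 2, and Chd1 -0.15 and 0.10. Of the 8 members with the highest mean CPM, those not yet described were Snd1, an RNA-binding nuclease, with -0.20 and -0.013 at day 2, Dst, a plakin that links filaments, and Camk1d, a kinase activated by calmodulin. Dst and Camk1d, like Zbtb20, varied widely among the 1-month libraries, from 70.6 to 189 CPM and from 22.4 to 103 CPM.

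Other members went the other way after DEN, none past the threshold of edgeR's quasi-likelihood test. Those with a negative fold change were 150, 145, 143 and 130 of the 188 in the 4 comparisons, and the rest were not lower. A group of 5 lay above the shorter genes in all 4 comparisons, beside 87 that lay below in all 4 (46.3%, beside 13.7% of shorter genes). The share of shorter genes is partly set by the method, since their medians are the reference. Whether 87 exceeds what the single comparisons give was not tested. These 5, named after their values were seen, were Sntg1, Slc7a11, Cdh18, Opcml and Nrg1. Nrg1, a ligand of ERBB receptors, had 0.747 and 0.825 CPM in 6-month controls, 1.78, 1.504 and 2.99 CPM at day 2 and 1.23, 1.51 and 5.82 CPM at day 6. The DEN libraries were all above the controls, with log2 fold changes of 1.41 (SE 0.605) and 1.88 (SE 0.607), and at 1 month the groups overlapped. The principal transcript of Nrg1 spans 100524 bases. Dpp10, a partner of potassium channels, had 4.76 and 4.47 CPM in 6-month controls, 7.76, 6.97 and 7.14 CPM at day 2 and 8.29, 5.75 and 8.19 CPM at day 6. Sntg1, a syntrophin, had 0.327 and 0.341 CPM in these controls and 0.657, 0.459 and 0.763 CPM at day 2. Cdh18, a cadherin, had 0.794 and 0.654 CPM in these controls and 1.57, 1.01 and 1.40 CPM at day 6.

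Higher members of smallest p at day 2 at 1 month were Fam110b, Lrrc4c, Schip1 and Ncald. Fam110b had 0.153 and 0.170 CPM in 1-month controls and 0.368, 0.583 and 0.654 CPM at day 2, and Lrrc4c, a ligand of netrin-G, had 0.614 and 0.374 CPM and 0.690, 0.948 and 1.48 CPM. Schip1, the member of that symbol that had counts, had 0.844 and 0.782 CPM and 0.966, 1.46 and 1.18 CPM, and Ncald, a neuronal calcium sensor, overlapped between the groups with 8.28 and 13.6 CPM and 12.5, 11.96 and 23.0 CPM. Gm37240, which overlaps 7 protein-coding genes, had only 3 counts at day 2 at 1 month against 45 in the controls. The ratio of controls to day 2 was 19.5 (95% exact interval 6.26 to 98.0, counting error only), and the controls themselves differed, at 0.153 and 1.39 CPM. The remaining members of smallest p were 2210408I21Rik, with 4.06 and 3.27 CPM in 6-month controls and 1.56, 1.84 and 1.89 CPM at day 2, and Snx29, with 2.92 and 3.84 CPM in 1-month controls and 6.52, 4.44 and 3.97 CPM at day 6.

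The ages and the days were then compared directly. In the difference between the ages 0 members were called by edgeR's quasi-likelihood test at day 2 (background 0.00638%) and 0 at day 6 (background 0.0128%), and DESeq2 called 0 in each (0.0574% and 0.0702% of all genes). At an unadjusted p under 0.05 there were 11 members at day 2 (background 4.46%) and 4 at day 6 (background 1.91%). The long-gene difference in these contrasts was 0.074 and 0.055. The member of smallest p was Phactr1, a regulator of actin and of phosphatase 1, which at day 2 lay below its controls at 1 month (0.767 and 0.918 CPM, then 0.460, 0.583 and 0.697 CPM) and above them at 6 months (0.654 and 0.768 CPM, then 1.19, 1.17 and 1.23 CPM). Its difference between the ages was 1.27 (SE 0.442, adjusted p = 0.943 by edgeR's quasi-likelihood test). Between day 6 and day 2, 0 members were called at 1 month (background 0.00638%) and 0 at 6 months (background 0.0128%), and DESeq2 also called 0 in each (0.206% and 0.0191% of all genes). At an unadjusted p under 0.05 there were 13 (background 5.06%) and 10 (background 1.72%). The long-gene difference between day 6 and day 2 was 0.059 at 1 month and 0.10 at 6 months.

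Between untreated ages the members moved in both directions. By edgeR's quasi-likelihood test, adjusted by Benjamini-Hochberg, 10 members were called between 6-month and 1-month controls, 8 higher and 2 lower at 6 months (background 2.67%), and DESeq2 called 14 (4.85% of all genes). Col25a1, a membrane collagen of neurons, rose from 0.192 and 0.170 CPM to 2.01 and 1.22 CPM (log2 fold change 3.11, adjusted p = 0.00177). Trhde, an ectoenzyme that degrades thyrotropin-releasing hormone, rose from 0 and 0.204 CPM to 2.80 and 2.28 CPM (adjusted p = 0.00308), and day 2 libraries at 6 months had 0.688, 1.04 and 0.830 CPM. The muscarinic receptor Chrm3 rose from 0.0384 and 0.136 CPM to 3.69 and 3.36 CPM (adjusted p = 0.00766). The glutamate receptor Grm8 had 3 counts in 1-month controls and 145 in 6-month controls, a ratio of 47.4 (95% exact interval 15.9 to 233, counting error only, adjusted p = 0.00404).
Dlgap1, a scaffold of synapses, rose with a log2 fold change of 1.54, Celf2, an RNA-binding protein, with 0.92, and Slc25a21 with 0.53. Their adjusted p-values were 0.0382, 0.0393 and 0.0862 in the same edgeR test. The call of Slc25a21 was lost in 16 of 24 alternatives, the replicate block among them. That of Dlgap1 was lost without 1-month control replicate 1 or 2 or 6-month control replicate 1, and that of Celf2 without 1-month control replicate 2 or 6-month control replicate 1 or 2. Lower at 6 months were B3galt1, a galactosyltransferase, which went from 56.4 and 80.9 CPM to 22.4 and 31.8 CPM (adjusted p = 0.0406, lost without the same libraries as that of Celf2), and Sdk1, an adhesion molecule of the sidekick family. Sdk1 had 1.34 and 0.986 CPM in 1-month controls and no count in either 6-month control, at least 21.7-fold lower against a floor of 3 counts over the group (adjusted p = 0.00973, lost without 6-month control replicate 2). With only the groups compared, the calls of Dlgap1, Celf2, B3galt1, Trhde and Col25a1 were lost as well, and without the 3 libraries of lowest clock score those of Dlgap1, Celf2 and B3galt1. Sdk1 had 0.276, 0.0729 and 0.261 CPM at day 2 at 1 month, below both controls. At 6 months its day 6 libraries held 4 counts in all.

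The genes that the rule leaves out were of like span, from 725 kb to 1612 kb, and did not share 1 direction. By edgeR's quasi-likelihood test Fhit, Park2 and Wwox fell at day 2 at 6 months, with log2 fold changes of -2.29, -1.73 and -0.88 (adjusted p = 0.00826, 0.0299 and 0.0443). Exoc4 rose on both days at that age, with 1.12 and 1.07 (adjusted p = 0.00138 and 0.00227).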

How the data were processed

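The 16 libraries of liver RNA were placed in 6 groups from the sample labels. Per the submitters' processing notes, reads were trimmed with cutadapt 1.7.1l and processed with TopHat2 2.0.13, Cufflinks 2.2.1, Cuffnorm and DESeq2 1.10.1 on GRCm38 with Ensembl annotation. The authors deposited raw read counts per gene. The sources used here do not give the program that counted the reads or whether it used strand. The authors' 16 columns of normalized counts and the columns of their own comparisons (fold changes, p-values and significance) were not used, nor were 10 genes without counts.

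Counts were scaled by TMM and filtered with filterByExpr, which left 15684 genes. All 6 groups were fitted in 1 model with edgeR 4.0.16 (quasi-likelihood test, limma 3.58.1, R 4.3.3; common biological coefficient of variation 0.218), with Benjamini-Hochberg adjustment of p-values over all genes, with a threshold of 0.1. Fold changes used a prior count of 0.125 and log2 CPM one of 2. A group of 2 controls borrows its spread from all groups. Tested genes were split into 10 classes of equal size by mean log2 CPM, and each member was compared with the median of the shorter protein-coding genes of its class. Exonic lengths and principal transcripts came from GENCODE M21, which held all 338 members by identifier, 265 with the same coordinates. Intervals on ratios of counts cover counting error only.

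Named members were those called in any comparison, the 4 lower and 4 higher members of smallest p on each day and age, the 8 of highest mean CPM, the 6 longest, those of the fragile-site list and the genes next to the threshold on length. Some genes that this rule names are not reported here. The members and lists were chosen with earlier results of these data known, so no test was made on the lists. The fits were also run on simulated data, but the outcome is not reported here and no result rests on it. Alternatives were DESeq2 1.42.0, other scalings, no filter, only the groups compared, a replicate block, the clock score as a covariate, leaving out libraries, and other sets of members or shorter genes. Python 3.11.15 with numpy 2.4.6, pandas 2.3.3 and matplotlib 3.10.9 served for tables and figures.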

Additional observations from a re-analysis of the deposited data

How the results depend on the processing

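The long-gene difference stayed below 0 after DEN at every setting tried, but some of these settings could hardly move it. Over 20 other settings, some chosen after seeing the data, it ran from -0.39 to -0.16 at day 2 and from -0.26 to -0.14 at day 6 at 1 month, and from -0.24 to -0.15 and from -0.20 to -0.11 at 6 months. Rescaling acts on members and shorter genes alike. At day 2 at 1 month DESeq2 size factors gave -0.286 and upper quartile scaling -0.284. Leaving out 1 library gave -0.35 to -0.13, -0.27 to -0.16, -0.27 to -0.17 and -0.22 to -0.084. These ranges include fits without a library from outside the compared groups, which could hardly move the value. At day 2 at 1 month, fits without a 6-month library gave -0.288 to -0.283. The value of -0.13 came without 1-month day 2 replicate 2 and that of -0.084 without 6-month control replicate 1. Between untreated ages the difference ran from -0.022 to 0.024, and from -0.055 to 0.13 without 1 library. Counts of members called moved more. At day 2 at 1 month DESeq2 called 2 and the fit with no filter on low counts 4, and at day 6 each called 1, in place of 0. At day 2 at 6 months, in place of 1, DESeq2 called 6, no filter 5, the clock score as a covariate 3, the fit that left out the 3 libraries lowest in clock score 3 (Pard3b not among them), and leaving out 1 library 0 to 2. At day 6 at 6 months, in place of 0, DESeq2 called 1, no filter 2, the fit without those 3 libraries 1, and leaving out 1 library 0 to 1. Between untreated ages, in place of 10, no filter called 18, only the groups compared 3, and leaving out 1 library 5 to 12, with 5 without 1-month control replicate 2 or 6-month control replicate 2 and 6 without 6-month control replicate 1. Between day 6 and day 2 at 1 month no filter called 1. The cause of these moves was not tested. For 42 pairs of a named member and a comparison, 932 of 1003 values kept their direction and their side of the threshold. The call was lost in 50 values and gained in 21, and 0 values turned. Most of these pairs were not called in the main fit, and values that stayed uncalled count as kept. Only the 1 pair called at day 2 at 6 months and the 10 called between untreated ages could lose a call. The 1003 values thus do not measure how firm the calls were. Over 36 pairs of libraries with the same replicate number, the deviations from group means correlated at -0.30 to 0.59. The median was 0.048, and 16 pairs were over 0.1. At 1 month, control and day 6 had 0.54 for replicates 1 and 0.59 for replicates 2, whereas control and day 2 had -0.27 for replicates 2. Pairs of different numbers were not compared, so whether replicate numbers pair the samples was not tested. With the replicate block 2 members were called at day 2 and 1 at day 6 at 6 months, and the long-gene differences were -0.30, -0.23, -0.24 and -0.20. Genes of few counts limit the fold changes of the members under 1 CPM.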
